A study of Danio rerio with 2 samples.

Results

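A set of 7 genes of the EF-hand family of calcium-binding proteins, calb1, calb2a, calb2b, pvalb9, s100t, s100b and s100a10b, were followed across the cell types of the adult female zebrafish pituitary. They were taken by symbol from a matrix of 25432 genes, in which all 7 were present in 1 copy. The members were chosen by their levels over the types and by the gnrh3-/- over WT ratios of calb2a, s100t and pvalb9 in these same libraries, so those values are given as a description and not as a test. For gnrh3-/- and for WT fish, 5 pituitaries of 3-month-old females were pooled, dissociated and sequenced as 1 droplet library. The gnrh3-/- fish lack a functional gene for the hypothalamic hormone Gnrh3, and the WT fish carry it. With 1 library per genotype, spread between animals is unknown and no p-value was computed.

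EF-hand proteins hold calcium in a loop between a pair of helices. Calbindin (calb1) and calretinin (calb2a and calb2b, the zebrafish duplicates) are cytosolic calcium buffers known mainly from neurons. Parvalbumins such as pvalb9 are buffers known from fast muscle and from neurons. S100 proteins act mostly as dimers that bind partner proteins: in mammals S100B is abundant in glia, and S100A10 binds annexin A2 and has lost the ability to bind calcium. In endocrine cells of the pituitary, calcium entry triggers hormone release.

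The gnrh3-/- library held 4794 cells with a median of 5368 unique molecular identifiers (UMIs, each standing for 1 captured transcript), and the WT library 2194 cells with a median of 6961. Of these, 4456 gnrh3-/- and 1955 WT cells belonged to the 13 deposited types described here, and 1 cell barcode was shared by the libraries. The deposited types carried their own markers: prl was highest in lactotropes, gh1 in the somatotropes, tshba in thyrotropes, lhb in LH gonadotropes, tbx19 in corticotropes, her6 in her6+ cells and isl1 in isl1+ cells, in both libraries. Of 5 endothelial markers, 1 had a UMI in gnrh3-/- her6+ cells and 0 in WT her6+ cells. Glial markers summed there to a level of 18.5 in the gnrh3-/- and 32.2 in the WT library. Of these, fabp7a (6.57 in gnrh3-/- and 15.4 in WT), cx43 (8.18 and 12.7) and slc1a3b were highest in her6+ cells in both libraries. Others were highest elsewhere: glula in corticotropes, plp1b in somatotropes beta and her4.1 in somatolactotropes alpha, and sox10 had 0 UMIs. The fibroblast gene dcn was also highest in her6+ cells, so these lists do not name the type. The deleted gene itself gave 1 UMI in the cells of each library, so it does not check the labels. Hormone RNA of other types was mostly more abundant in gnrh3-/- cells, with 97 of 108 pairs of a type and a hormone gene it does not make higher and 7 lower than in WT: gh1 stood at 133 UMIs per 10000 in gnrh3-/- lactotropes, against 8.37 in WT lactotropes, and at 517 in gnrh3-/- her6+ cells, against 3.69 in WT her6+ cells. The part of this difference in the values below was not tested except where a value without such cells is given.

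Levels are UMIs of a gene per 10000 UMIs of all cells of a type in a library, with a 95% interval from the exact Poisson distribution, and shares of cells carry exact binomial (Clopper-Pearson) 95% intervals. All intervals cover counting error only. Transcripts were counted from their 3' ends and the level is not divided by length, so levels are compared between types and libraries and not between genes.

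For 6 members the type with the highest level was the same in both libraries. It was LH gonadotropes for calb1 and s100b, lactotropes for calb2a, corticotropes for pvalb9, somatotropes beta for s100t and her6+ cells for s100a10b. For s100b in the gnrh3-/- library the margin over her6+ cells was within counting error. The plot of levels by type shows this pattern. The rule that the same type be highest and at least 4 times the next type in both libraries was met by s100t and s100a10b, or 2 of the 6 members with enough UMIs, and by 4.03% of the 11216 genes with at least 100 UMIs. The choice of members was made with this pattern in view.

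**Figure D1:**
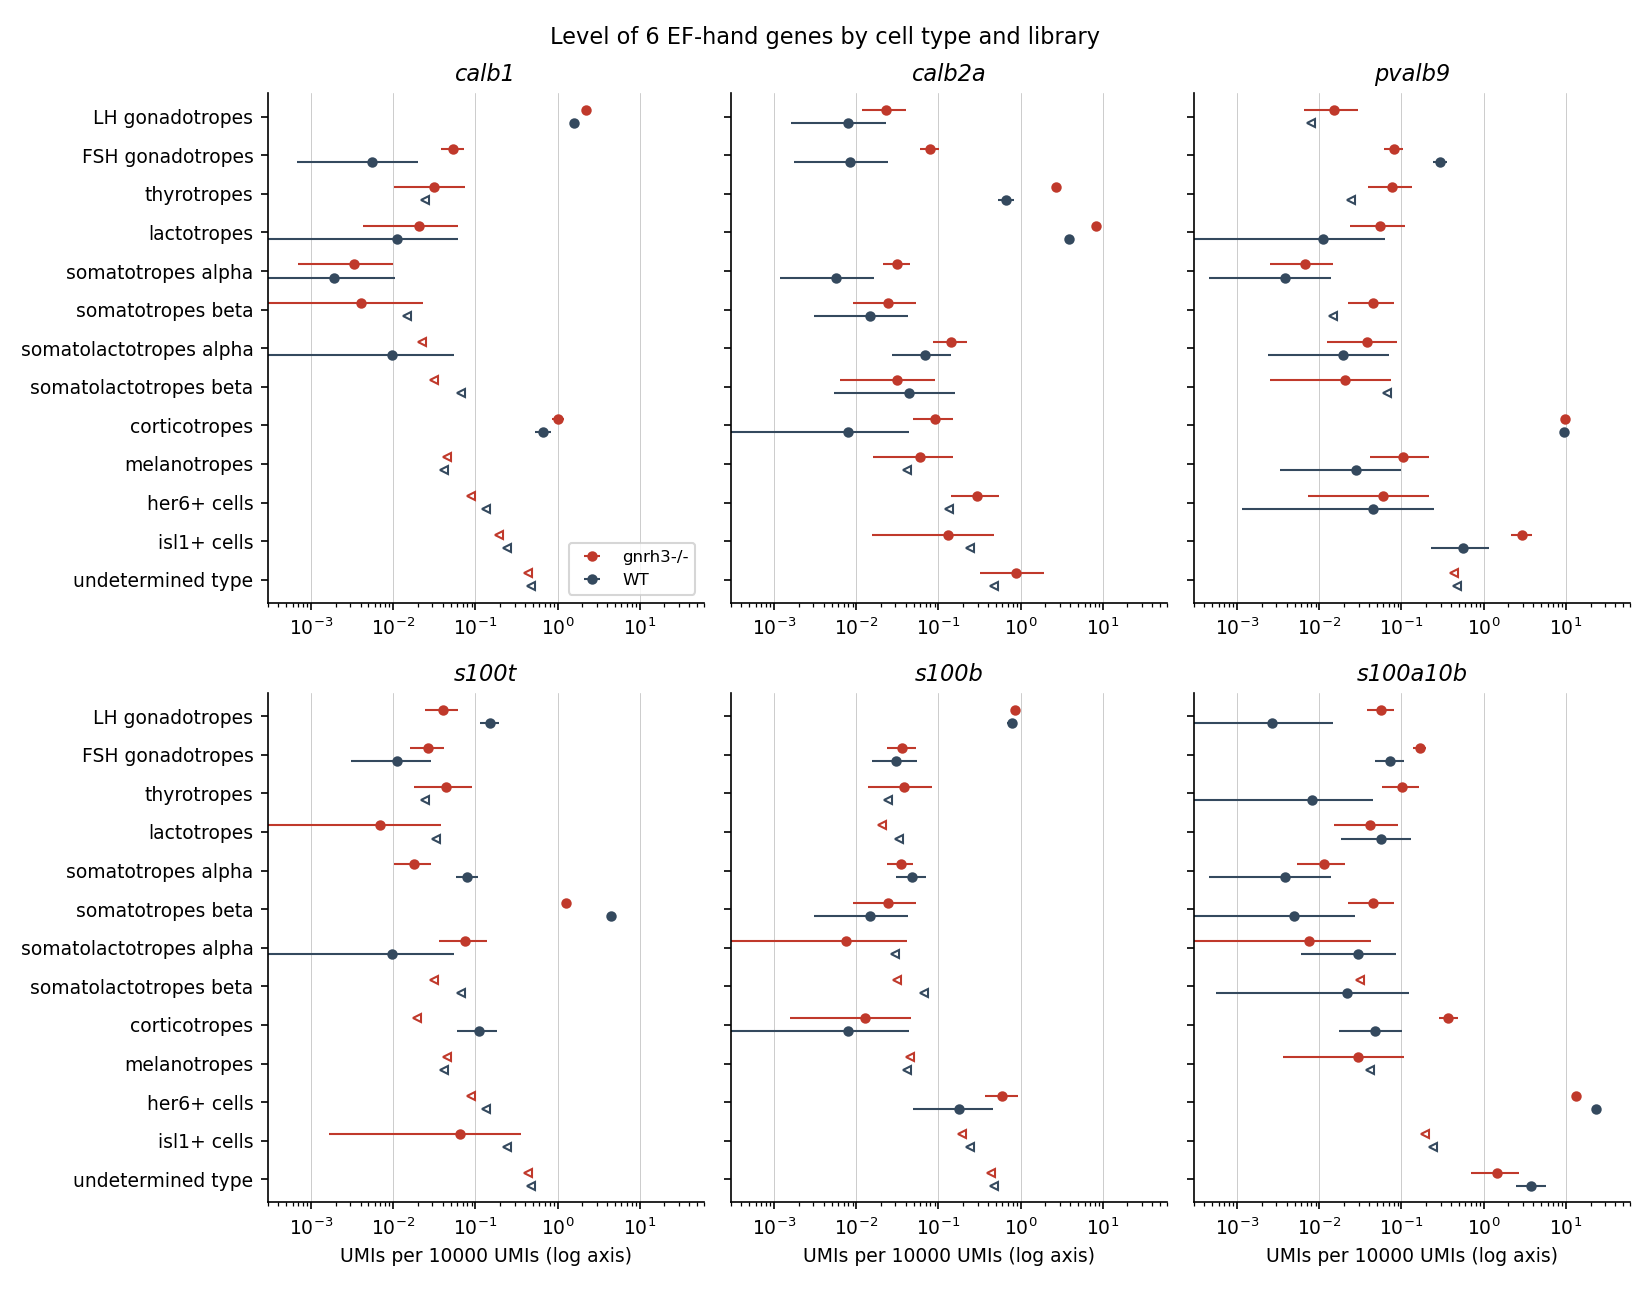
Level of 6 EF-hand genes in UMIs per 10000 UMIs (log axis) in each of 13 cell types, with gnrh3-/- in red above WT in dark blue. Points are sums over the cells of a type, bars are exact Poisson 95% intervals, and open triangles mark the level of 3 counts for types with 0 UMIs. Each gene has 1 or 2 types far to the right of the others, such as 9.80 in gnrh3-/- and 9.63 in WT corticotropes for pvalb9.

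Calbindin was expressed in LH gonadotropes and, at a lower level, in corticotropes. In LH gonadotropes calb1 had 1176 UMIs and a level of 2.23 (2.11 to 2.37) in the gnrh3-/- library, and 612 UMIs and a level of 1.61 (1.48 to 1.74) in the WT library. These cells held 84.9% of its UMIs in the gnrh3-/- and 87.2% in the WT library. In corticotropes the level was 1.02 (0.864 to 1.19) in the gnrh3-/- and 0.668 (0.534 to 0.826) in the WT library. LH gonadotropes were thus 2.20-fold above corticotropes in the gnrh3-/- library and 2.41-fold above them in the WT library, and corticotropes in turn stood far above every other type. FSH gonadotropes, the other gonadotrope type, had 39 UMIs in the gnrh3-/- and 2 in the WT library, a log2 ratio of 3.27 (1.32 to 6.36) at levels of 0.0538 in gnrh3-/- and 0.00559 in WT cells. The calb1 level of empty droplets, barcodes with 10 to 100 UMIs that are not cells, was 0.419 in the gnrh3-/- and 0.217 in the WT library. The share of free RNA in a type was estimated from hormone genes it does not make. It was the median of their level in the type over that in empty droplets. Hormone RNA from doublets or made in the cells counts in that share, so it can be too high. In gnrh3-/- FSH gonadotropes the RNA so subtracted covered all calb1 counts, so no ratio was left there. In both libraries calb1 thus stood far higher in LH than in FSH gonadotropes.

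The calb1 level was higher in gnrh3-/- cells by a log2 ratio of 0.47 (0.33 to 0.62) in LH gonadotropes and of 0.60 (0.22 to 1.00) in corticotropes, both short of 2-fold. Among the 5131 genes ranked in LH gonadotropes this ratio was the 476th from the highest. The share of LH gonadotropes with a calb1 UMI was 63.0% in the gnrh3-/- and 62.1% in the WT library at median depths of 8250 and 15651.5 UMIs. After each cell was thinned at random to 2000 UMIs it was 31.0% (27.3 to 34.9) in gnrh3-/- and 24.3% (18.9 to 30.4) in WT cells, intervals that overlap. The share in thyrotropes, taken as background, was 0.732% in the gnrh3-/- library, at a median of 3185 UMIs, and 0% in WT, where 0 of 205 cells, at a median of 5451 UMIs, allow up to 1.46%.

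Calretinin a was higher in the gnrh3-/- library in lactotropes and thyrotropes, the types with most of its UMIs. In lactotropes calb2a had 1199 UMIs and a level of 8.31 (7.85 to 8.79) in the gnrh3-/- library, against 350 UMIs and a level of 3.92 (3.52 to 4.35) in the WT library. In thyrotropes it had 428 UMIs and a level of 2.72 (2.47 to 2.99) in the gnrh3-/- library, against 81 UMIs and a level of 0.660 (0.524 to 0.820) in the WT library. Neither pair of intervals overlaps. The log2 ratio was 1.09 (0.91 to 1.26) in lactotropes and 2.04 (1.70 to 2.40) in thyrotropes, or 2.12-fold and 4.12-fold.

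Ranked among all genes, calb2a, chosen by these ratios, had the 13th highest ratio of 1849 in lactotropes and the 9th of 2662 in thyrotropes. A ratio of at least 2-fold upward was reached by 0.757% of genes in lactotropes and by 1.31% in thyrotropes. It was 2-fold or more higher in all 8 types where it had at least 10 UMIs, and in 5 of these the interval lay above 0. In the other 6 of these types 1.23% (LH gonadotropes), 1.27% (FSH gonadotropes), 0.792% (somatotropes alpha), 0.803% (somatolactotropes alpha), 1.08% (corticotropes) and 1.78% (her6+ cells) of all genes were 2-fold or more higher. These shares cover genes with at least 100 UMIs in the type, more than calb2a had in any of the 6, so they are not a like background for it. The counts there were small, and the ratios in LH and FSH gonadotropes had no value once the estimated free RNA was subtracted. The estimated share of UMIs was 10.3% in gnrh3-/- and 1.76% in WT LH gonadotropes. It was 25.0% in gnrh3-/- and 0.439% in WT FSH gonadotropes. All hormone RNA of other types counts in these shares, also that from doublets, so they can be too high. In FSH gonadotropes all 3 WT UMIs lay in 1 cell, in which tshba made up 9.09% of the UMIs. Leaving out foreign hormone cells or the highest cell took away all WT counts there, so no ratio was left. None was left without doublets. FSH gonadotropes had 57 UMIs in the gnrh3-/- and 3 in the WT library, somatotropes alpha had 28 and 3, and corticotropes had 14 and 1. The corticotrope ratio changed to -0.13 without foreign hormone cells, those with over 5% of their UMIs from a hormone that is not their own. Without such cells the ratio was 1.13 in lactotropes and 2.12 in thyrotropes. In her6+ cells both cells with calb2a carried prl, at 26.0% and 8.29% of their UMIs.

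**Figure D2:**
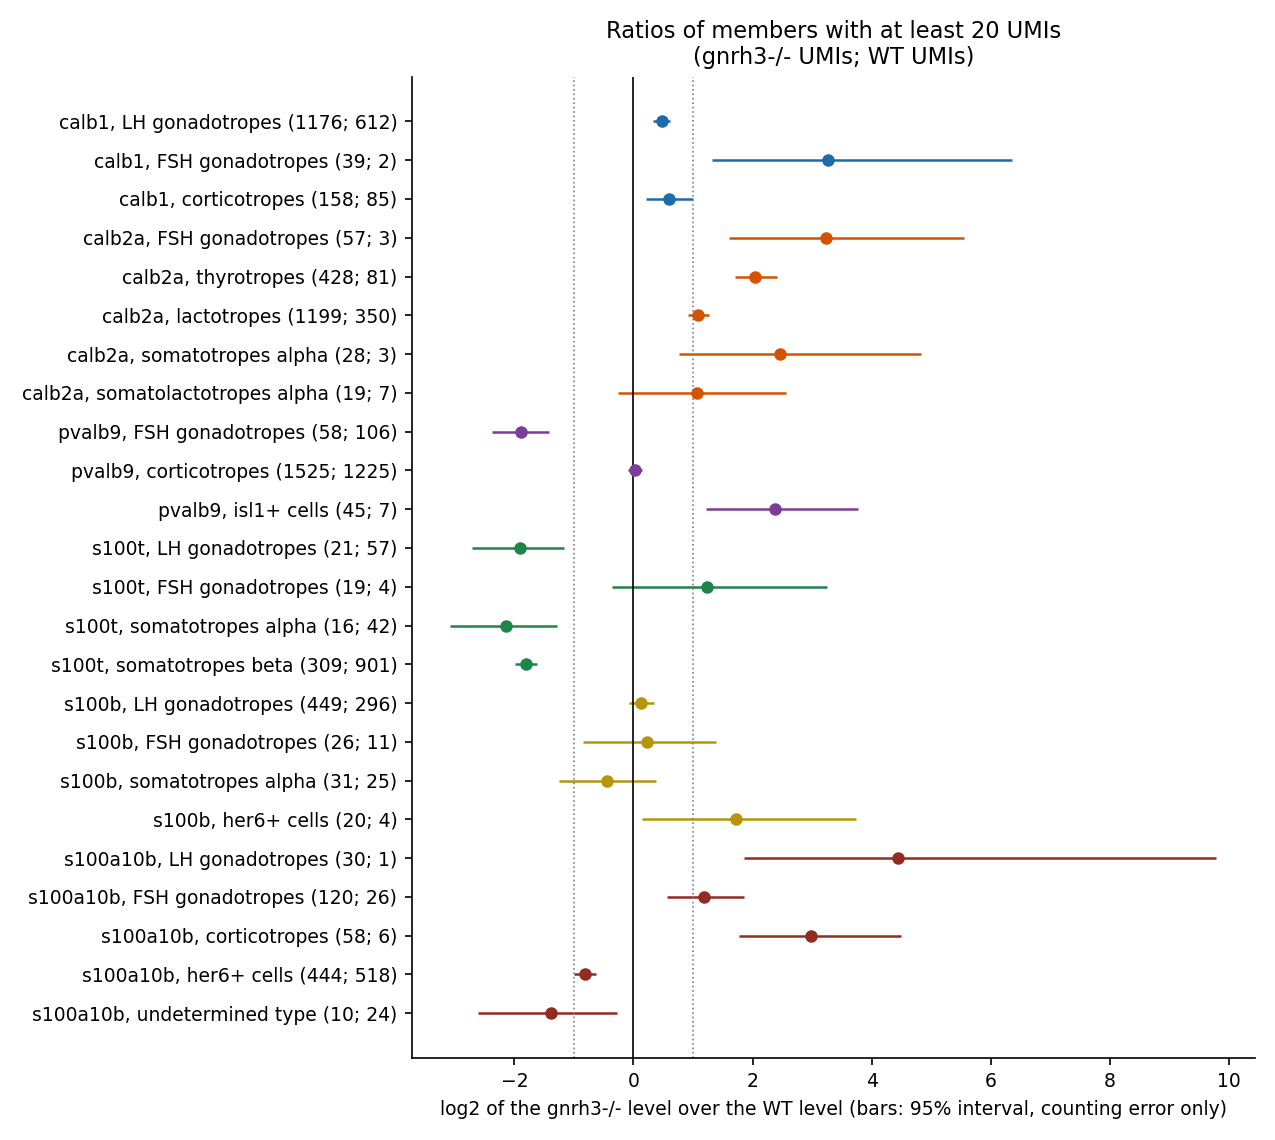
Log2 ratio of levels, gnrh3-/- over WT, for the 24 pairs of gene and type with at least 20 UMIs, with the gnrh3-/- and then the WT UMIs in brackets. Points are ratios, bars are 95% intervals from the exact binomial interval of both sums, and dotted lines mark 2-fold. Ratios of calb2a lie at 1.06 or more, s100t in somatotropes beta lies at -1.80 and pvalb9 in corticotropes at 0.03.

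More cells carried calb2a in the gnrh3-/- library. A UMI was found in 75.1% (70.6 to 79.3) of gnrh3-/- lactotropes, against 50.0% (42.6 to 57.4) of WT lactotropes, although the WT cells were deeper, with a median of 4743 against 3434.5 UMIs for gnrh3-/- cells. After thinning to 2000 UMIs the shares were 65.7% (60.6 to 70.5) in gnrh3-/- and 31.7% (24.9 to 39.0) in WT lactotropes. In thyrotropes the thinned shares were 30.4% (25.7 to 35.5) in gnrh3-/- and 8.04% (4.67 to 12.7) in WT cells, and the shares as counted were 38.5% and 19.0%. In somatotropes alpha, taken as background, 2.65% of gnrh3-/- and 1.16% of WT cells had a UMI at medians of 11026.5 and 19038 UMIs.

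The level per cell was shifted as well. A level above 10 per 10000 was seen in 32.1% of gnrh3-/- lactotropes, against 12.8% of WT lactotropes, and in 9.02% of gnrh3-/- thyrotropes, against 0 of 205 WT thyrotropes. The median lactotrope had a level of 6.36 in the gnrh3-/- library and 0.726 in the WT library. The 10% of cells with the most UMIs held 34.0% of the lactotrope total in the gnrh3-/- and 53.4% in the WT library. The WT total was thus held by fewer of the cells.

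**Figure D3:**
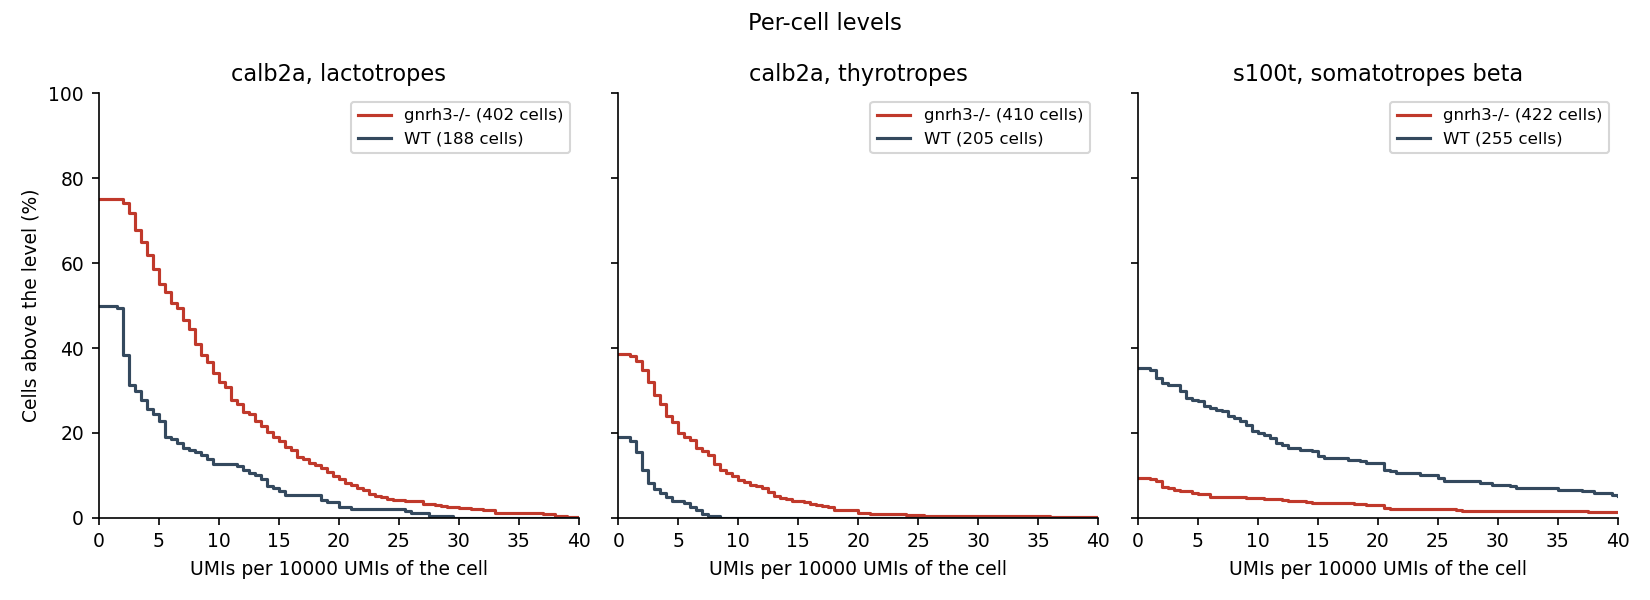
Share of cells (%) above each level of the gene (UMIs per 10000 UMIs of the cell), with gnrh3-/- in red and WT in dark blue, for calb2a in lactotropes and thyrotropes and s100t in somatotropes beta. The gnrh3-/- curve lies above the WT curve for calb2a and below it for s100t, as at a level of 10, with 32.1% of gnrh3-/- and 12.8% of WT lactotropes and 20 of 422 gnrh3-/- and 51 of 255 WT somatotropes beta.

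Empty droplets held calb2a at 1.05 in the gnrh3-/- and 0.487 in the WT library, below the lactotrope and thyrotrope levels of the same library, with the narrowest margin in WT thyrotropes (0.660). Subtracting a share of this free RNA kept the lactotrope ratio within its interval and gave 2.22 in thyrotropes. The prl level was 56.8 in gnrh3-/- thyrotropes with calb2a and 5.33 in those without it, and 1.17 and 1.45 in the WT cells. The share of cells with prl did not differ beyond counting error: 51.3% (41.8 to 60.7) of gnrh3-/- cells with calb2a and 54.6% (48.1 to 61.0) of those without it had a prl UMI after thinning, and 23.8% (8.22 to 47.2) and 27.5% (21.1 to 34.7) of the WT cells. The part of prl RNA in the thyrotrope ratio was otherwise measured only as the value of 2.12 without foreign hormone cells.

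Cells with and without a UMI of a member were then compared within a type, a comparison chosen after the values had been seen, over genes with at least 50 UMIs in the type in each library. Thyrotropes with calb2a had less gphb5, which encodes the beta subunit of thyrostimulin: 1.07 with and 7.43 without calb2a in the gnrh3-/- library, and 0.675 with and 8.43 without it in the WT library. They also had less tfa, a transferrin, at 1.36 with and 10.4 without calb2a in gnrh3-/- and 0.0711 (2 UMIs) with and 2.70 without it in WT cells. Another such gene was six2b, which encodes a homeobox transcription factor, with 0.260 and 0.692 in gnrh3-/- cells and 0.284 and 1.44 in WT cells. After thinning, gphb5 was detected in 8.04% (3.74 to 14.7) of gnrh3-/- thyrotropes with calb2a and 23.0% (17.9 to 28.9) of those without it. In WT the shares were 22.2% (6.41 to 47.6) of only 18 cells with calb2a and 32.0% (25.3 to 39.4) of those without it, which overlap.

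Lactotropes with calb2a had more tfcp2l1, which encodes a transcription factor of the grainyhead family, at 3.44 with and 1.59 without calb2a in the gnrh3-/- library and 5.99 and 1.87 in the WT library. They had less tmsb4x, which encodes an actin-sequestering thymosin, at 0.471 with and 1.69 without calb2a in gnrh3-/- and 0.767 and 2.05 in WT cells. The hormone gene prl itself was higher in the lactotropes with calb2a, at 2624 with and 2131 without calb2a in gnrh3-/- cells and 2609 and 1982 in WT cells. Cells with calb2a were also deeper, with medians of 3641.5 against 2780.5 UMIs in gnrh3-/- and 5463.5 against 4343 in WT lactotropes.

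The other calretinin duplicate, calb2b, was close to absent. It had 15 UMIs in the gnrh3-/- and 5 in the WT library, all in somatotropes alpha (11 and 3) and somatotropes beta (4 and 2), and 0 in the other 11 types of both libraries. The calretinin duplicates thus differed in the types where most of their UMIs lay, and calb2b was too sparse for a comparison between libraries.

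Parvalbumin 9 marked corticotropes, and its level there differed by less than counting error between the libraries. In corticotropes pvalb9 had 1525 UMIs and a level of 9.80 (9.32 to 10.3) in the gnrh3-/- library, and 1225 UMIs and a level of 9.63 (9.10 to 10.2) in the WT library. The log2 ratio was 0.03 with an interval of -0.08 to 0.14. Corticotropes held 90.3% of its UMIs in the gnrh3-/- and 91.0% in the WT library. A UMI was present in 85.0% of gnrh3-/- and 88.2% of WT corticotropes, and after thinning in 74.0% (68.2 to 79.3) and 73.8% (66.8 to 80.0). Melanotropes, which also express pomca, had 7 UMIs in the gnrh3-/- and 2 in the WT library, so pvalb9 separated corticotropes from melanotropes.

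Outside corticotropes pvalb9 was low except in gnrh3-/- isl1+ cells, and a few cells held much of its count. FSH gonadotropes had 58 UMIs in the gnrh3-/- and 106 in the WT library, a log2 ratio of -1.89 (-2.37 to -1.41). With pvalb9 chosen by its ratios, 1 gene of 5596 was lower, where 0.429% of genes were 2-fold or more lower. In the WT library 2 cells held 64.2% of these UMIs, with 44 and 24 each, and in the gnrh3-/- library 2 cells held 34.5%. In isl1+ cells pvalb9 had 45 UMIs and a level of 2.92 in the gnrh3-/- library, and 7 and 0.562 in the WT library. Corticotropes stood 3.36-fold above them in gnrh3-/- and 17.1-fold in WT. The log2 ratio was 2.38 (1.22 to 3.77), in a type where 5.04% of genes were 2-fold or more higher. That share covers genes with at least 100 UMIs in the type, more than pvalb9 had there. In the gnrh3-/- library 2 isl1+ cells held 71.1% of the 45 UMIs, and pomca made up 9.83% and 12.3% of all UMIs of those cells. It counted as foreign there, though isl1+ cells as a whole carried pomca at 102 in gnrh3-/- and 136 in WT. Without foreign hormone cells the isl1+ ratio was 0.63, and that in FSH gonadotropes was -2.39. Empty droplets held pvalb9 at 1.78 in the gnrh3-/- and 1.41 in the WT library, above the FSH gonadotrope levels of 0.0801 and 0.296. The free RNA estimated for gnrh3-/- FSH gonadotropes covered all of their pvalb9 counts, so no ratio was left there after it was subtracted.

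Corticotropes carried both pvalb9 and calb1. After thinning, pvalb9 was detected in 71.2% (56.9 to 82.9) of gnrh3-/- corticotropes with calb1 and 76.2% (69.8 to 81.9) of those without it, and in 62.5% (40.6 to 81.2) and 72.3% (64.7 to 79.1) of the WT cells. The intervals overlap in both libraries. Corticotropes with calb1 had more dio2, the deiodinase that activates thyroid hormone, at 1.05 with and 0.0980 without calb1 in gnrh3-/- and 3.26 and 0.0101 (1 UMI) in WT cells. The same gene was higher in LH gonadotropes with calb1, at 0.264 with and 0.0765 without it in gnrh3-/- and 0.512 and 0.0153 (2 UMIs) in WT cells. Both WT levels without calb1 lie under 3 counts, so they set no fold. Corticotropes with calb1 also had more scg5.1, a secretogranin V gene, at 5.00 and 2.78 in gnrh3-/- and 5.15 and 2.68 in WT cells. They had less serpinh1b, a collagen chaperone gene, at 0.803 and 2.04 in gnrh3-/- and 0.823 and 1.48 in WT cells. Hormone RNA of other types differed too. In corticotropes lhb was 11.9 with and 1.18 without calb1 in gnrh3-/- and 0.680 and 0.997 in WT cells. The tshba level was 9.64 and 3.26 in gnrh3-/- and 13.0 and 0.715 in WT cells. Levels of gh1 and prl were lower in corticotropes with calb1 in both libraries. The part of such RNA in the dio2 difference was not tested.

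The S100 gene s100t marked a fraction of somatotropes beta, and that fraction was smaller in the gnrh3-/- library. In somatotropes beta s100t had 309 UMIs and a level of 1.27 (1.13 to 1.42) in the gnrh3-/- library, against 901 UMIs and a level of 4.42 (4.13 to 4.71) in the WT library. The log2 ratio was -1.80 (-1.99 to -1.61), so that the WT level was 3.48-fold above the gnrh3-/- level. Only 3 of 2626 genes had a lower ratio in this type, where 1.71% of genes were 2-fold or more lower. As s100t was chosen by its ratios, this rank is a description. A UMI was present in 9.48% (6.86 to 12.7) of gnrh3-/- cells, against 35.3% (29.4 to 41.5) of WT cells, and after thinning in 4.59% (2.74 to 7.16) of gnrh3-/- and 29.4% (23.8 to 35.4) of WT cells. In lactotropes, taken as background, the share as counted was 0.249% in the gnrh3-/- library and 0% in WT, where 0 of 188 cells allow up to 1.60%.

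Among the cells with an s100t UMI the level was 17.4 in gnrh3-/- and 17.3 in WT somatotropes beta. The cells with a UMI numbered 40 of 422 in gnrh3-/- and 90 of 255 in WT somatotropes beta. The highest cells had 68 UMIs in the gnrh3-/- and 82 in the WT library, and 2 cells held 39.2% of the gnrh3-/- and 13.5% of the WT total. Without those 2 cells of each library the level in cells with a UMI was 10.8 in gnrh3-/- and 15.3 in WT cells. Without the highest cell of each library the log2 ratio was -2.02. The plot of shares after thinning shows s100t as the only one of 8 pairs of gene and type with a clearly lower share in the gnrh3-/- library.

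**Figure D4:**
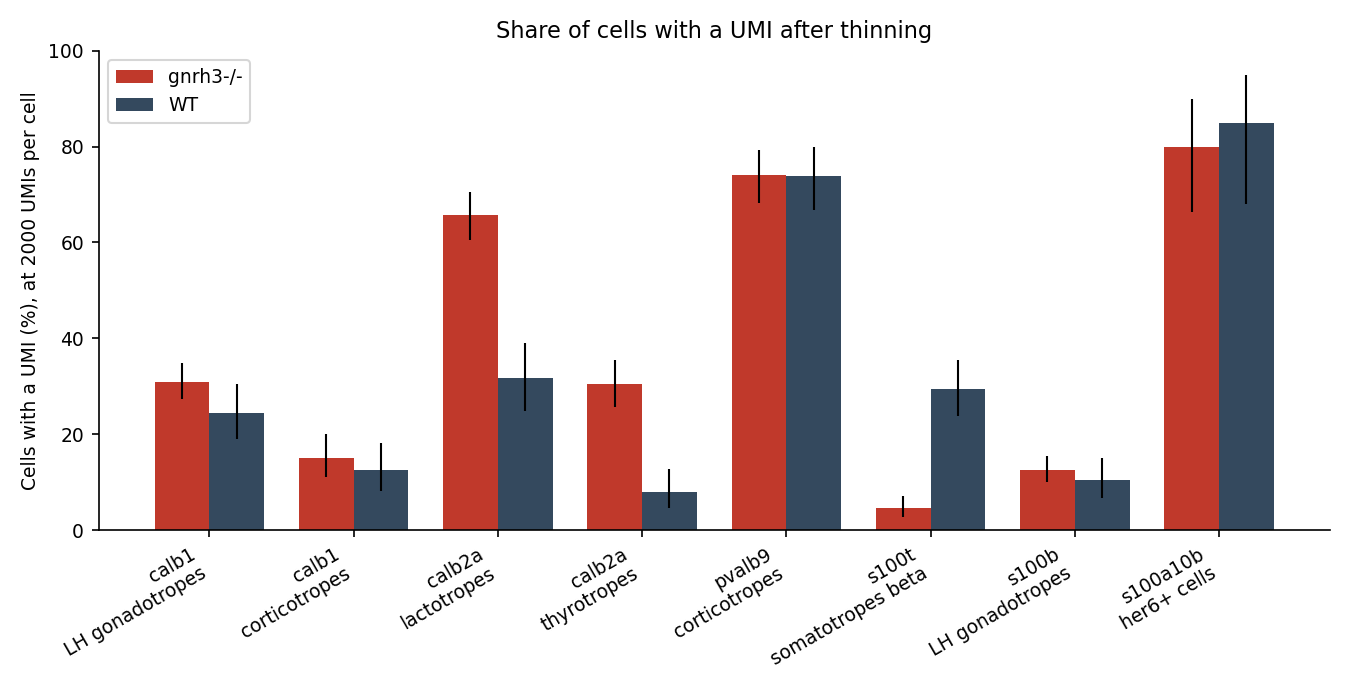
Share of cells (%) with a UMI of the gene after each cell was thinned to 2000 UMIs, with gnrh3-/- in red to the left of WT in dark blue, for 8 pairs of gene and type. Bars of error are exact binomial 95% intervals. The shares of calb2a are higher in gnrh3-/- cells (65.7% in gnrh3-/- and 31.7% in WT lactotropes), that of s100t is lower (4.59% in gnrh3-/- and 29.4% in WT somatotropes beta), and the intervals of the other 5 pairs overlap.

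In other types s100t was low, and in most of them a few cells held much of the count. LH gonadotropes had 21 UMIs in the gnrh3-/- and 57 in the WT library, of which 1 cell held 76.2% in the gnrh3-/- and 77.2% in the WT library. Somatotropes alpha had 16 UMIs in the gnrh3-/- and 42 in the WT library, a log2 ratio of -2.15 (-3.08 to -1.29). Genes 2-fold or more lower made up 0.565% in LH gonadotropes and 0.770% in somatotropes alpha, and 2.82% in corticotropes. These shares cover genes with at least 100 UMIs in the type, more than s100t had in any of them. In FSH gonadotropes the counts went the other way, with 19 UMIs in the gnrh3-/- and 4 in the WT library and a log2 ratio of 1.23 (-0.36 to 3.25), an interval that holds 0. In corticotropes s100t had 0 UMIs in the gnrh3-/- library and 14 in the WT library, all 14 in 1 cell in which gh1 made up 25.1% of the UMIs, and the gnrh3-/- level was at least 5.71-fold lower at the level of 3 counts. In somatolactotropes alpha there were 10 UMIs in the gnrh3-/- and 1 in the WT library, the 10 in a single cell. In empty droplets s100t stood at 0.0759 in the gnrh3-/- and 0.515 in the WT library, lower in gnrh3-/- as in somatotropes beta.

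Somatotropes beta with s100t differed from those without it in other genes, which were chosen for having the same direction in both libraries. They had more igfbp5b, an insulin-like growth factor binding protein gene, at 1.35 with and 0.434 without s100t in the gnrh3-/- library and 3.70 and 0.850 in the WT library. They had more jun, which encodes a subunit of the AP-1 transcription factor, at 16.1 and 6.97 in gnrh3-/- and 22.3 and 7.80 in WT cells, and more of the transcription factor genes mef2cb and pax6a. They had less ecrg4a, which encodes the secreted protein augurin, at 3.15 with and 10.1 without s100t in gnrh3-/- and 0.996 and 5.08 in WT cells. After thinning, ecrg4a was detected in 5.26% (0.133 to 26.0) of gnrh3-/- cells with s100t and 36.2% (31.3 to 41.3) of those without it, and in 1.30% (0.0329 to 7.02) and 25.7% (19.4 to 32.9) of the WT cells. For igfbp5b the thinned shares overlapped in the gnrh3-/- library, at 8.70% (1.07 to 28.0) with and 5.96% (3.77 to 8.89) without s100t, and did not in WT, at 38.8% (28.1 to 50.3) and 11.05% (6.78 to 16.7). The S100 gene icn showed the same, at 4.76% (0.120 to 23.8) with and 5.66% (3.54 to 8.52) without s100t in gnrh3-/- cells and 31.0% (20.5 to 43.1) and 8.84% (5.14 to 14.0) in WT cells.

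Over the whole type some of these genes differed between the libraries as well. The log2 ratio over all somatotropes beta was -1.66 for igfbp5b and -1.17 for mef2cb, which were higher in cells with s100t, and 1.25 for ecrg4a, which was lower in them. It was smaller for jun, at -0.59, and for pax6a, at -0.74. Other genes of the plot went the other way. The ratio was 0.26 for ivns1abpb, which was higher in cells with s100t. It was -0.42 for camta1b and -0.25 for si:ch211-153l6.6, which were lower in them. Cells with s100t were shallower, with medians of 3963.5 against 5517.5 UMIs in gnrh3-/- and 5375 against 8982 in WT cells, and had less gh1, at 3577 against 4186 in gnrh3-/- and 3414 against 4482 in WT cells. The part of depth in these differences was not tested.

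**Figure D5:**
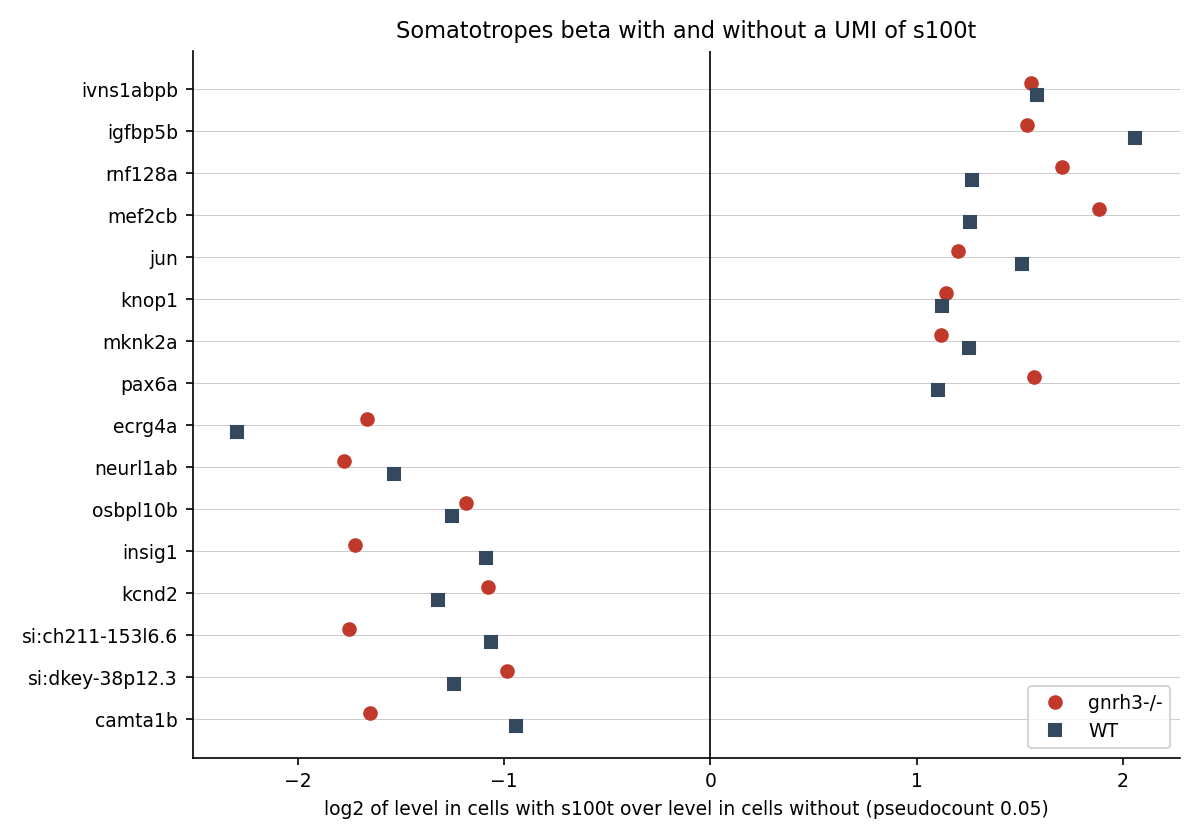
Log2 of the level in somatotropes beta with a UMI of s100t over the level in those without one, with a pseudocount of 0.05, for the 8 genes that were highest and the 8 that were lowest in both libraries. Red circles are gnrh3-/- cells (40 with, 382 without) and dark blue squares below them are WT cells (90 with, 165 without). All 16 genes lie on the same side of 0 in both libraries because they were chosen for that, for example igfbp5b at 1.53 in gnrh3-/- and 2.06 in WT cells.

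S100b was highest in LH gonadotropes, and its levels there differed by less than counting error between the libraries. It had 449 UMIs and a level of 0.853 (0.776 to 0.936) in the gnrh3-/- library, and 296 UMIs and a level of 0.778 (0.692 to 0.872) in the WT library, for a log2 ratio of 0.13 (-0.08 to 0.35). A UMI was present in 26.7% of gnrh3-/- and 24.6% of WT cells, and after thinning in 12.6% (10.0 to 15.5) and 10.4% (6.80 to 15.1). In lactotropes the share was 0% in both libraries, which allows up to 0.746% in the gnrh3-/- and 1.60% in the WT library. The next type was her6+ cells, with 20 UMIs and a level of 0.597 (0.365 to 0.922) in the gnrh3-/- and 4 UMIs and a level of 0.180 (0.0491 to 0.461) in the WT library. The log2 ratio in her6+ cells was 1.73 (0.15 to 3.74), from few counts. Of genes with at least 100 UMIs in that type, more than s100b had there, 1.78% were 2-fold or more higher. In the gnrh3-/- library LH gonadotropes and her6+ cells did not differ beyond counting error, with a fold of 1.43 (0.914 to 2.36).

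LH gonadotropes were the highest type for both calb1 and s100b, but cells with the one did not carry the other more often. After thinning, s100b was detected in 8.47% (4.82 to 13.6) of gnrh3-/- cells with calb1 and 13.3% (10.2 to 17.0) of those without it, and in 12.7% (5.27 to 24.5) and 13.7% (8.99 to 19.7) of the WT cells. Some genes went opposite ways with the members, while cel.1 was higher in cells with calb1 and in cells with s100b in both libraries. The level of rgs16, a regulator of G-protein signalling, was 2.06 with and 0.989 without calb1 in gnrh3-/- cells and 1.48 and 0.759 in WT cells, but 1.22 with and 1.90 without s100b in gnrh3-/- and 0.751 and 1.40 in WT cells. The gene fkbp1ab, which encodes an FK506-binding protein, was likewise higher in cells with calb1, at 1.02 with and 0.512 without it in gnrh3-/- and 0.904 and 0.406 in WT cells. It was lower in cells with s100b, at 0.599 with and 0.949 without it in gnrh3-/- and 0.501 and 0.811 in WT cells. Cells with calb1 were deeper, with medians of 8838 against 6919 UMIs in gnrh3-/- and 16202.5 against 14518 in WT. The gh1 level was 25.1 with and 2.70 without calb1 in WT and 225 and 246 in gnrh3-/- cells. It was 61.7 with and 2.53 without s100b in WT and 241 and 228 in gnrh3-/- cells. The part of depth and of such RNA was not tested.

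S100a10b was concentrated in her6+ cells. There it had 444 UMIs and a level of 13.3 (12.1 to 14.5) in the gnrh3-/- library, and 518 UMIs and a level of 23.3 (21.4 to 25.4) in the WT library. The log2 ratio was -0.82 (-1.0 to -0.63), short of 2-fold, in a type where 1.78% of genes were 2-fold or more lower. A UMI was present in 89.1% of 64 gnrh3-/- and 97.3% of 37 WT cells, and after thinning in 80.0% (66.3 to 89.97) of gnrh3-/- and 84.8% (68.1 to 94.9) of WT cells. The summed level of the glial markers, mostly from fabp7a and cx43, was likewise lower in the gnrh3-/- library, as given above. The level of her6 was instead higher, at 9.76 in gnrh3-/- and 5.27 in WT her6+ cells. The undetermined type, with 17 gnrh3-/- and 11 WT cells, was second in level but too small to set the order, with 10 UMIs in the gnrh3-/- and 24 in the WT library, levels of 1.46 (0.699 to 2.68) in gnrh3-/- and 3.81 (2.44 to 5.67) in WT cells. Of the genes with at least 100 UMIs in that type, more than s100a10b had there, 5.13% were 2-fold or more lower.

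In hormone-producing types s100a10b was low and, as counted, mostly higher in the gnrh3-/- library. Empty droplets held it at 0.565 in the gnrh3-/- and 1.35 in the WT library, above its level in each of these types. With free RNA subtracted no ratio was left in LH gonadotropes, thyrotropes, somatotropes alpha or somatotropes beta. Without the highest cell none was left in LH gonadotropes, thyrotropes or somatotropes beta. FSH gonadotropes had 120 UMIs in the gnrh3-/- and 26 in the WT library, a log2 ratio of 1.19 (0.57 to 1.86), in a type where 1.27% of genes were 2-fold or more higher. Its UMIs there were spread over 7.93% of gnrh3-/- and 6.93% of WT cells. After the free RNA estimated for each library was subtracted, at 25.0% of UMIs in gnrh3-/- and 0.439% in WT, the ratio was -1.02. That value depends on these shares, which can be too high. Corticotropes had 58 UMIs in the gnrh3-/- and 6 in the WT library, and 2 gnrh3-/- cells held 67.2% of the 58. The log2 ratio was 2.98 (1.77 to 4.49), and 1.61 without the cells called as doublets. LH gonadotropes had 30 UMIs in the gnrh3-/- and 1 in the WT library, and 2 gnrh3-/- cells held 83.3% of the 30. The LH ratio was 4.44 (1.85 to 9.79), and -0.34 without the doublets.

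Genes whose levels over the 13 types were most like those of each member were named by the lower of the 2 libraries' Pearson r of log2(level + 0.1). The types share a library and differ in depth and in number of cells, so r is a description. For calb1 these were prg4b (0.87), lnx2a (0.85) and scrt1a (0.84), and for calb2a they were ndrg3b (0.87), ncam1b (0.85), a neural cell adhesion molecule gene, and nrp2a (0.77), a neuropilin gene. For pvalb9 they were CLSTN2 (0.95), a calsyntenin gene, gria4a (0.93), an AMPA glutamate receptor subunit gene, and si:ch211-236g6.1 (0.92). For s100b they were cdon (0.95), which encodes a Hedgehog co-receptor, tdrd1 (0.95) and mcm4 (0.88), and for s100a10b tagln2 (0.96), a transgelin gene, tes (0.96) and selenop (0.95), which encodes selenoprotein P.

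For s100t the most alike gene was si:ch211-105c13.3, with a lower r of 0.92, followed by slc7a8b (0.88), an amino acid transporter gene, and nmur1a (0.88), a neuromedin U receptor gene. In the order of genes of the GRCz12tu assembly si:ch211-105c13.3 is the immediate neighbour of s100t. In somatotropes beta it stood at 0.640 in the gnrh3-/- and 0.799 in the WT library, a far smaller difference than that of s100t. None of the 7 members lay on the chromosome of gnrh3. In the same gene order pvalb9 lies beside pvalb3 and pvalb2, and s100a10b beside s100w and icn.

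Other EF-hand genes gave a background for the members. Of 95 listed genes 85 were in the files and 58 had at least 100 UMIs. The rule of 4 times the next type was met by 8 of the 58, beside 4.03% of the 11216 genes. Like s100a10b, 6 of the 8 were highest in her6+ cells: sparc, a secreted matrix protein gene, at 13.5 in the gnrh3-/- and 16.5 in the WT library, the myosin light chain genes myl9a and myl9b, efhd1, s100v2 and icn (ictacalcin), at 60.5 in the gnrh3-/- and 71.5 in the WT library. The others were calml4a in isl1+ cells, at 1.04 in gnrh3-/- and 2.17 in WT, and s100z in FSH gonadotropes, at 6.98 and 7.87. How many of all genes that met the rule were highest in her6+ cells was not counted.

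Few of these genes differed 2-fold between the libraries among those with 100 UMIs in all and 4 in each library. Of the 39 measured in FSH gonadotropes 0 passed 2-fold, and their median log2 ratio was 0.04 beside 0.02 over all genes. Of the 34 measured in LH gonadotropes s100z was lower, with 87 UMIs in the gnrh3-/- and 145 in the WT library and a log2 ratio of -1.21, and icn was higher, with 199 and 50 UMIs and a log2 ratio of 1.52. Free RNA, as estimated from foreign hormone genes, was 10.3% of UMIs in gnrh3-/- and 1.76% in WT LH gonadotropes, shares that can be too high. The part of free RNA, doublets and single cells in the ratios of s100z and icn was not tested. Of the 18 in somatotropes beta, the type of s100t, 2 were lower: pvalb8, another parvalbumin, with 205 UMIs in the gnrh3-/- and 450 in the WT library (log2 ratio -1.39), and calm3a, a calmodulin gene, with 385 and 686 UMIs (log2 ratio -1.09). These 2 genes were named after their values were seen. The median of the 18 was -0.34, beside -0.13 over the 2626 genes of that type. In lactotropes 0 of 16 and in thyrotropes 0 of 18 passed 2-fold in either direction, and in the types other than LH gonadotropes and somatotropes beta 0 passed. The minimum of 4 UMIs in each library left out 1 further pair of gene and type, the parvalbumin gene pvalb5 in thyrotropes, with 0 UMIs in the gnrh3-/- and 298 in the WT library, and all 298 lay in 1 of the 205 WT cells. Of all genes 1.95% in lactotropes and 1.58% in thyrotropes were 2-fold or more lower. In somatotropes beta 1.71% were 2-fold or more lower and 0.647% higher. In LH gonadotropes 0.565% were lower and 1.23% higher. The shares lower were 0.361% in somatolactotropes alpha, 0.656% in somatolactotropes beta, 0.642% in melanotropes and 1.40% in isl1+ cells. The shares higher were 4.59% in somatolactotropes beta, 1.07% in melanotropes and 4.1% in the undetermined type.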

How the data were processed

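The authors deposited raw, unnormalized UMI counts, once for every barcode of a library and once for the filtered cells, and gave for each filtered cell its genotype, cluster and type. The methods and submitters' notes name Cell Ranger 6.0.2, Seurat 4 and GRCz11, with protein-coding genes of the Ensembl annotation. In the cells 0 entries differed from the matrices of all barcodes. The deposited types were used as given, and 1 of the 14 types is not reported here.

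The members and gene lists were chosen with earlier results of these data known. UMIs were summed by type and library and set over the UMI total of the same cells. A ratio needed 10 UMIs or more in the libraries together, and a library at 0 was set to 3 counts. A gene counted as called at 2-fold, given 100 UMIs or more in the sum of the libraries and 4 in each. For order, types with at least 50 cells counted. Named genes were the 7 members, the 3 most alike genes of each, and other EF-hand genes at least 4 times the next type or past 2-fold in gonadotropes. Genes in cells with and without a member were compared with a pseudocount of 0.05, and those named were chosen after their values were seen.

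The gnrh3-/- library held 38809315 UMIs and the WT library 25405369 over all barcodes. Empty droplets averaged 49.7 UMIs in gnrh3-/- (71649 droplets) and 27.5 UMIs in WT (76792 droplets). In the gnrh3-/- library 3 counts are a level of 0.00338 to 0.437 by type, and in the WT library 0.00570 to 0.476. Scrublet, run in scanpy 1.11.5 at an expected rate of 5%, called 167 gnrh3-/- and 5 WT cells as doublets, so that few WT cells were left out. Its score threshold was set for each library, at 0.203 in gnrh3-/- and 0.334 in WT, so these counts are not compared between the libraries. TMM factors came from edgeR 4.0.16. Python 3.11.15, NumPy 2.4.6 and SciPy 1.17.1 were used, and the code of the ratio and the thinning was run on simulated data. The simulated counts were independent, so they do not cover the gathering of UMIs in few cells seen in the data. Alternatives were per-cell means, TMM, a total without hormone genes and subtraction of free RNA. The free RNA share of a type was the median, over foreign hormone genes, of their level in the type over that in empty droplets. It does not tell free RNA from doublets or from hormone RNA made in the cells. Others left out doublets, cells with over 5% of a foreign hormone gene, both of these (added after seeing the data) or the highest cell. Further alternatives were minimums of 1000 UMIs per cell and 20 UMIs of a member. The minimum of 20 UMIs can only remove a ratio and not change it.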

Additional observations from a re-analysis of the deposited data

Results flagged for a closer look

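In 3 members there were ratios past 2-fold in opposite directions in 2 types, each with an interval off 0. The difference between types was not tested, since each genotype had 1 library. For pvalb9 the log2 ratio was 2.38 in isl1+ cells and -1.89 in FSH gonadotropes, a difference of 4.26, and 2 cells held 71.1% of the gnrh3-/- counts in isl1+ cells and 64.2% of the WT counts in FSH gonadotropes. Subtracting the estimated free RNA took the pvalb9 count of gnrh3-/- FSH gonadotropes to 0 and left WT counts. The ratio then had no value, but gnrh3-/- stayed the lower library. For s100t it was 2.94 in somatolactotropes alpha, from 10 gnrh3-/- UMIs in 1 cell and 1 WT UMI, and -1.80 in somatotropes beta, a difference of 4.74. For s100a10b it was 1.19 in FSH gonadotropes and -1.39 in the undetermined type, a difference of 2.58. The ratio in FSH gonadotropes reversed when free RNA was subtracted at the estimated shares of 25.0% in gnrh3-/- and 0.439% in WT. Those shares come from foreign hormone genes and can be too high, so the reversal depends on the estimate.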

How the results depend on the processing

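No paired analysis was possible because each genotype had 1 library. Alternative values were set beside the ratios in the highest type of each member and of calb2a in thyrotropes. Of these values, 62 stayed within the interval of the reported ratio and 8 did not. The 62 include those under the higher minimum of UMIs of a member. That minimum only removes ratios with few UMIs, so it returned each of these ratios unchanged and could not test them. With TMM scaling, which adds 0.26 in lactotropes and 0.20 in somatotropes beta, the log2 ratio was 1.34 for calb2a in lactotropes, 0.15 for pvalb9 in corticotropes, -1.60 for s100t in somatotropes beta and -0.61 for s100a10b in her6+ cells. The median over all genes before it was -0.17 in lactotropes and -0.13 in somatotropes beta. With the mean of per-cell levels the ratio was 0.14 for pvalb9, -1.48 for s100t and -0.53 for s100a10b in the same types. Without the highest cell it was -2.02 for s100t. The cause of these shifts was not tested. All kept their sign.

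The fold of the highest type over the next moved beyond its interval in 10 values and stayed within it in 73. With the per-cell mean it was 1.75 for calb1, 38.5 for s100t and 50.8 for s100a10b in gnrh3-/-, and 60.5 for s100t in WT. Without the highest cell it was 5.50 for pvalb9 and 52.2 for s100a10b in gnrh3-/-, and 117 for s100t in WT. Without foreign hormone cells it was 10.9 for pvalb9 in gnrh3-/-, without doublets 92.5 for s100a10b in gnrh3-/-, and without hormone genes in the total 41.0 for s100t in WT.

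Among ratios whose size was 2-fold or more, those that changed sign were calb2a in corticotropes without foreign hormone cells (-0.13), s100a10b in LH gonadotropes without doublets (-0.34) and without both (-0.31), s100a10b in FSH gonadotropes with free RNA subtracted (-1.02), and s100a10b in somatotropes alpha with per-cell means (-1.61). Smaller ratios also changed sign for s100b in FSH gonadotropes (-0.80 to 0.70) and s100a10b in lactotropes (-0.62 to 0.63). Shares of cells moved beyond their intervals in 18 values and stayed within them in 6, with no thinning or with thinning to 1000 UMIs. A share rises with the UMIs kept per cell, so these moves do not test the comparison of the libraries. At 3 counts per type, levels under 0.00338 in gnrh3-/- and 0.00570 in WT could not be told from 0 in any type.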
